A study of Mus musculus with 6 samples.

Results

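Glis3 and 4 genes of the Hedgehog-Gli pathway, Ptch1, Gas1, Kif7 and Sufu, were followed across colonies of mouse pancreatic cells. They were taken by gene symbol from the deposited expression table, where each of the 5 symbols has 1 row among 11164 genes, and all 5 passed the filter on low values. RNA came from primary colonies of C57Bl/6 mice aged 2 to 4 months. The founding cells were sorted from pancreas as CD133/high CD71/low, a fraction that the labels call pancreatic progenitor cells. Three-dimensional cultures in Matrigel and methylcellulose with RSPO1, nicotinamide, exendin-4, activin B and serum were kept for 3 weeks, under puromycin after overnight exposure to lentivirus. Control colonies (shControl) received 1 shRNA without a mammalian target. Colonies of the Glis3 knockdown (shGlis3) and of the CD133 knockdown (shCD133) each received a pool of 5 shRNA clones, so the groups differ in the number of clones as well as in the target. Each group has 2 libraries, numbered 1 and 3 in the titles. Whether they stem from different mice or cultures is not stated in the labels. The p-values therefore reflect only how far the libraries of a group differ, which may be technical.

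Hedgehog ligands bind Ptch1, a membrane protein that otherwise holds the transducer Smo inactive. Gas1 is a lipid-anchored surface protein that helps present the ligand to Ptch1. Downstream, at the primary cilium, the kinesin-like protein Kif7 and the cytoplasmic inhibitor Sufu control how much Gli transcription factor is processed to a repressor or released as an activator, and Ptch1 is itself a widely used target gene of the pathway. Glis3 is a zinc-finger transcription factor whose DNA-binding fingers resemble those of the Gli proteins. It can be found at the primary cilium, it binds Sufu, and it is required for pancreatic beta cell development and for normal pancreatic ducts.

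Expression was given as RPKM, reads per kilobase of transcript and per megareads of depth, a scale on which levels of different genes can be compared. RPKM sums lay between 267688 and 279122 per library, and depth estimated from the steps of low values lay between 25.8 and 29.2 megareads. At these depths the 5 genes rest on about 109 to 6253 reads per library, if the union of their annotated exons is taken as the length, so counting error alone is about 9.59% at the lowest value of Kif7 and 1.27% at the highest value of Glis3. Marker lists checked the cells against ductal epithelium and other types: 11 of 12 ductal markers were in the table, against 1 of 12 acinar, 5 of 11 endocrine, 1 of 11 mesenchymal, 0 of 6 endothelial, 1 of 7 immune and 1 of 6 Schwann and neural markers. Prom1, which encodes CD133, lay at 191.25 and 203.42 RPKM in control libraries 1 and 3, and at 88.03 and 96.00 in the CD133 knockdown (limma adjusted p = 0.00874). The table holds only genes that reached 1 RPKM in at least 1 library.

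The 250 bases before the RefSeq starts (GRCm38.p6, the assembly of mm10) are shown for Glis3 and Gas1, the pair of genes that fell together in the Glis3 knockdown, and for Ptch1, the pathway's own target. Capitals mark the letters TGGGGG or, on the other strand, CCCCCA. Each sequence runs 5′ to 3′ on the strand of its gene, which is minus for all 3, and ends at the base before the start. They lie at chr19:28680078-28680327 for Glis3, chr13:60177536-60177785 for Gas1 and chr13:63565736-63565985 for Ptch1. The last is inside the GENCODE gene, whose outermost start lies 7863 bases further upstream. For Gas1 the GENCODE start lies 170 bases downstream of the RefSeq start, so distances from the RefSeq start do not hold for it.
Glis3: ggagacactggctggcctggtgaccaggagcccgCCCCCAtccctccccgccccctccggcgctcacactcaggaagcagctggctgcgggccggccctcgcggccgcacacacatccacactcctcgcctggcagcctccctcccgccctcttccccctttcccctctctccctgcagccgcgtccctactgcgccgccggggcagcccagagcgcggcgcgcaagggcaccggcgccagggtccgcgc
Gas1: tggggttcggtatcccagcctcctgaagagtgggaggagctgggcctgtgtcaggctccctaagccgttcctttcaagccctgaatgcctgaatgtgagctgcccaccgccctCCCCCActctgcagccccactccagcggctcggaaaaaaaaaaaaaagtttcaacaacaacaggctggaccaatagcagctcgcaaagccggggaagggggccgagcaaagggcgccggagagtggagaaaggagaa
Ptch1: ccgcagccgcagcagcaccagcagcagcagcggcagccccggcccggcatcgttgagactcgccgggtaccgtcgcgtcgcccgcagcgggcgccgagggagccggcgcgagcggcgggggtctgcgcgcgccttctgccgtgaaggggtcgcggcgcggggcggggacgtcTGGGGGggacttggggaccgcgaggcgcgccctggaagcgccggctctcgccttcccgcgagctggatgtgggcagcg

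Both strands of these windows were searched for letters associated with the 2 factor families. The Gli consensus GACCACCCA was in none of the 5 windows, and it was in 0.225% of the 32851 windows of RefSeq genes. A core of the Glis consensus, TGGGGGGT, was also in none of the 5, against 1.36% of all windows. The shorter run TGGGGG, which the longer core contains, was present before Glis3, Ptch1, Gas1 and Kif7 and not before Sufu, while 24.3% of all windows hold it. Before the RefSeq start it lay at 216 bases in Glis3, 137 in Gas1, 78 in Ptch1, and 53 and 168 in Kif7. The RefSeq and GENCODE starts lie 170 bases apart in Gas1 and 7863 in Ptch1, so these distances hold for the RefSeq starts only. The windows before Glis3, Ptch1 and Kif7 were rich in G and C (75.6%, 78.4% and 74.4%), against a median of 52.4% over all windows and 58.8% before Gas1. A match of letters is a description and was not tied to binding here.

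In control colonies the genes stood in the order Glis3, Ptch1, Sufu, Gas1 and Kif7, with means of 25.1, 8.76, 5.83, 4.10 and 1.43 RPKM (n = 2). No pair of neighbours in that order overlapped between the 2 control libraries. By level, Glis3 lay above 79.8% of tested genes, Ptch1 above 46.8%, Sufu above 32.9%, Gas1 above 23.2% and Kif7 above 4.60%. The order was kept in the CD133 knockdown. In the Glis3 knockdown it was kept down to Sufu, while the values of Gas1 (2.51 and 1.60 RPKM) and Kif7 (1.72 and 1.5 RPKM) overlapped.

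**Figure D1:**
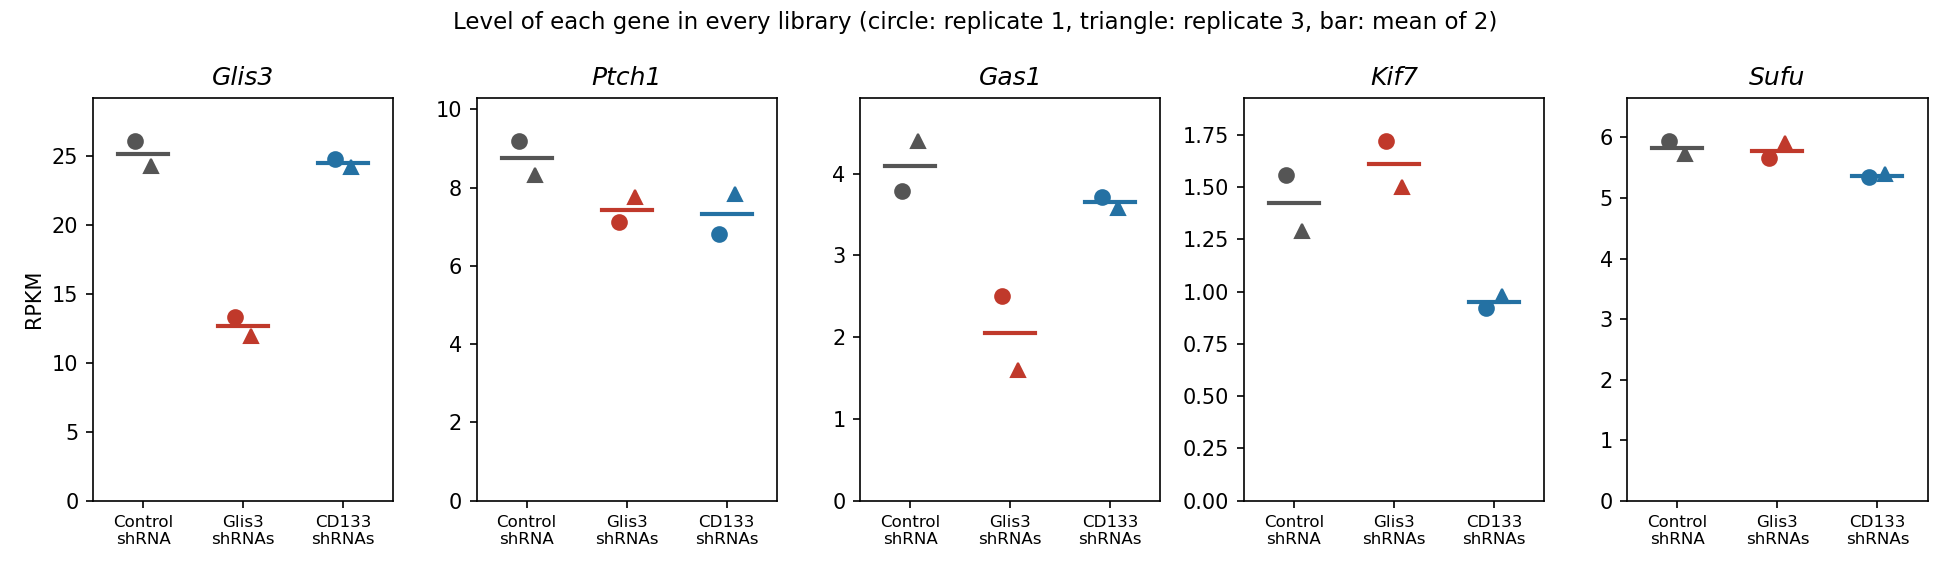
RPKM of Glis3, Ptch1, Gas1, Kif7 and Sufu in each of the 6 libraries, with a bar at the mean of the 2 libraries of a group and every axis starting at 0. Glis3 and Gas1 are low in the 2 Glis3 shRNA libraries, Kif7 is lowest in the 2 CD133 shRNA libraries, and Sufu stays between 5.34 and 5.94 RPKM.

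The comparison of the Glis3 knockdown with control shows how the pathway genes stood when their Gli-related relative was lowered. Glis3 and Gas1 fell, and Ptch1, Kif7 and Sufu did not pass the test. Among all 10829 genes tested, 4.53% were called lower and 8.39% higher at an adjusted p under 0.05, beside 2 of the 5 genes called lower and 0 called higher. Glis3 is the target of the shRNA pool, so its fall goes with the design, and Gas1 was the only other gene of the 5 called. The 5 genes were chosen with earlier results of these data known. Their count of 2 is therefore not a test against the shares of all genes. With each library centred on its median, 44.7% of all calls in this comparison were higher, and with quantile normalization 50.8%, against 64.9% as fitted.

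Glis3 has the identifier ENSMUSG00000052942.13 and spans 28258851 to 28680077 of chromosome 19 (GRCm38, minus strand). It was measured at 26.05 and 24.22 RPKM in control libraries 1 and 3. In the Glis3 shRNA libraries it was at 13.31 and 11.96 RPKM, and in the CD133 shRNA libraries at 24.75 and 24.19 RPKM. Both Glis3 shRNA libraries were far below the 4 others, which lay within 2 RPKM of each other, so the measured target goes with the labels. The log2 fold change on the log2(RPKM + 1) scale was -0.94 against control (95% confidence interval -1.10 to -0.78, limma adjusted p = 0.00281), and Glis3 RNA stood at 50.3% of control. Against the CD133 knockdown it was -0.90 (interval -1.07 to -0.74, adjusted p = 0.00522). With any single library left out the first value stayed between -1.01 and -0.87 and the call was kept, at an adjusted p of 0.00206 to 0.0489. Its exons overlap those of no other annotated gene.

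Gas1 (ENSMUSG00000052957.8, chromosome 13, 60174405 to 60177365, minus strand), a gene of 1 exon, was measured at 3.79 and 4.40 RPKM in control libraries 1 and 3. In the Glis3 shRNA libraries it was at 2.51 and 1.60 RPKM, and in the CD133 shRNA libraries at 3.72 and 3.58 RPKM. The Glis3 shRNA libraries lay below every other library, and they also differed from each other more than those of any other group did. Gas1 fell by 0.75 on the log2(RPKM + 1) scale (SE 0.143, interval -1.09 to -0.41, limma adjusted p = 0.0225), to 50.2% of control in RPKM. The smaller log2 value than for Glis3 at a like percentage comes with the added 1 RPKM, which weighs more on a low gene: the log2 fold change was -0.87 with a pseudocount of 0.5 and -0.37 with 5. Leaving out control library 1 ended the call (-0.84, adjusted p = 0.10), as did leaving out control library 3 (-0.67, adjusted p = 0.125), and over all alternatives the adjusted p ran from 0.00371 to 0.125.

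Between the knockdowns Gas1 stood at -0.62 (interval -0.96 to -0.28), which missed the threshold (adjusted p = 0.0669, 2 of 2 Glis3 shRNA libraries below both CD133 shRNA libraries) and passed without Glis3 shRNA library 1 (-0.84, adjusted p = 0.0107). Against control, the CD133 knockdown had Gas1 at 89.1%, or -0.13 in log2 with an interval of -0.47 to 0.21 (adjusted p = 0.587). Exons of a noncoding gene on the opposite strand, Gm48488, cover 589 of the 2961 exonic bases of Gas1. That gene is not analysed here, and whether counting used the strand is not given in the sources used here, so the share of its reads in these values is not known.

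Gas1 is also well known from fibroblasts. The 1 mesenchymal marker in the table, Fn1 (fibronectin), lay at 112 RPKM in both control libraries, between 53.5 and 56.3 in the Glis3 knockdown and between 84.7 and 87.8 in the CD133 knockdown. The defining mesenchymal markers Col1a1, Col1a2, Col3a1, Dcn, Lum, Pdgfra, Pdgfrb, Acta2, Thy1 and Vim have no row. Ncam1, the 1 Schwann and neural marker measured, lay between 3.75 and 3.89 RPKM in control and between 1.22 and 1.79 in the Glis3 knockdown. The 11 ductal markers summed to 9644 to 10212 RPKM in control, 7553 to 8912 in the Glis3 knockdown and 7503 to 7862 in the CD133 knockdown. Most of that sum is Spp1 (osteopontin): the 10 other ductal markers summed to 3154 to 3479 in control, 3385 to 3700 in the Glis3 knockdown and 3661 to 4376 in the CD133 knockdown. The part of any of these in the change of Gas1 was not tested. In bulk RNA, fewer cells of a type and less RNA per cell cannot be told apart.

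Ptch1 (ENSMUSG00000021466.12, chromosome 13, 63508328 to 63573598, minus strand) was at 9.19 and 8.32 RPKM in control libraries 1 and 3, at 7.11 and 7.77 in the Glis3 knockdown and at 6.82 and 7.84 in the CD133 knockdown. All 4 knockdown libraries lay below both control libraries, and the 2 knockdowns overlapped each other. In the Glis3 knockdown Ptch1 stood at 85.0% of control, a log2 value of -0.21 with an interval of -0.41 to -0.0048 (adjusted p = 0.155). In the CD133 knockdown it stood at 83.7%, a log2 value of -0.23 with an interval of -0.43 to -0.03 (adjusted p = 0.125). Neither passed the limma test, and no alternative brought either past it (adjusted p between 0.0749 and 0.501). The knockdowns share the control libraries, so the values are not independent of each other. The difference between the knockdowns was 0.02 (interval -0.18 to 0.22, adjusted p = 0.921).

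Kif7 (ENSMUSG00000050382.14, chromosome 7, 79698098 to 79715720, minus strand), the lowest of the 5, was at 1.56 and 1.29 RPKM in control libraries 1 and 3. It was at 1.72 and 1.5 in the Glis3 knockdown and at 0.92 and 0.98 in the CD133 knockdown. The CD133 shRNA libraries lay below the other 4, while control and Glis3 shRNA libraries overlapped. Kif7 in the CD133 knockdown stood at 66.7% of control, or -0.31 in log2 with an interval of -0.54 to -0.08, with an adjusted p of 0.0806 by limma. In the Glis3 knockdown the value was 0.11 (interval -0.12 to 0.34, adjusted p = 0.491). Between the knockdowns the log2 difference was 0.42 in favour of the Glis3 knockdown (interval 0.19 to 0.65, adjusted p = 0.0667), which passed without a variance trend (adjusted p = 0.0479) and with quantile normalization (adjusted p = 0.0465), and ran up to 0.252 over the other alternatives. Kif7 shares 51 exonic bases with Ticrr and 877 of its 4581 exonic bases with the noncoding gene 9330171B17Rik, both on the opposite strand.

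Sufu (ENSMUSG00000025231.17, chromosome 19, 46396896 to 46488804, plus strand), on the same chromosome as Glis3, varied least, with a coefficient of variation of 4.43% over the 6 libraries against 10.9% for Ptch1, 24.4% for Kif7, 30.5% for Glis3 and 31.3% for Gas1. Its values were 5.94 and 5.72 RPKM in control libraries 1 and 3, 5.66 and 5.91 in the Glis3 knockdown and 5.34 and 5.40 in the CD133 knockdown. Glis3 shRNA libraries overlapped the controls, and CD133 shRNA libraries lay below all others by a small margin. In log2 terms it stood at -0.01 in the Glis3 knockdown, with an interval of -0.15 to 0.13 (adjusted p = 0.932). The value in the CD133 knockdown was -0.10, with an interval of -0.24 to 0.04 (adjusted p = 0.30). Its exons overlap those of no other annotated gene.

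The comparison of the CD133 knockdown with control asks the same of the surface protein CD133, the product of Prom1. Of the 5 genes 0 fell and 0 rose by limma, where 3.64% of the 10829 genes tested were called lower and 8.16% higher, and 3366 genes had an unadjusted p under 0.05, Ptch1 (0.0327) and Kif7 (0.0150) among them. The share of higher calls was 69.2% as fitted, 47.7% with median centring and 50.4% with quantile normalization, which was also the 1 setting that called Kif7 lower (log2 fold change -0.41, adjusted p = 0.0439, against 0.0521 to 0.301 under the others). In 4 of the 5 genes (Ptch1, Gas1, Kif7 and Sufu) both CD133 shRNA libraries were below both controls, which held for 22.1% of all genes tested. Glis3 itself overlapped the controls and stood at 97.4% of their mean, or -0.04 in log2 with an interval of -0.20 to 0.13 (adjusted p = 0.757). In the direct comparison of the knockdowns, 2.46% of all genes were called lower in the Glis3 knockdown and 1.61% higher, and of the 5 genes Glis3 was called lower.

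**Figure D2:**
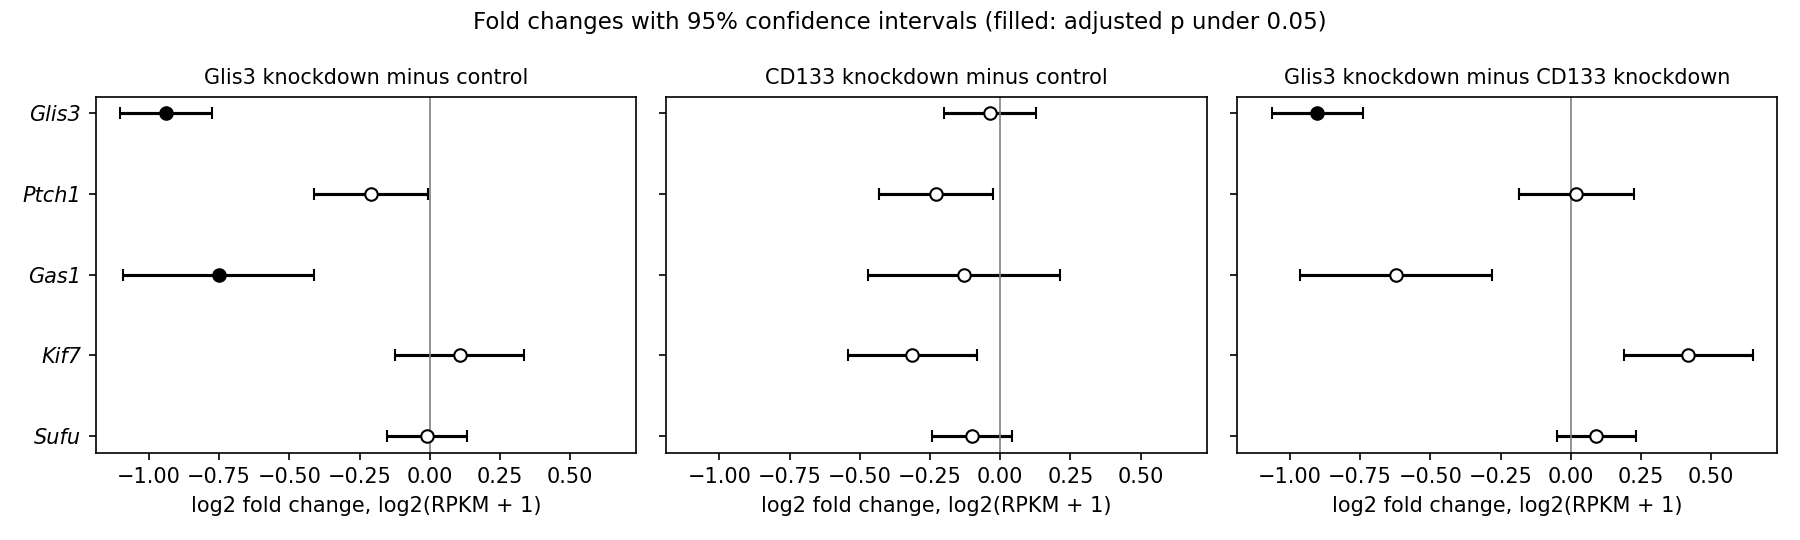
Log2 fold changes on the log2(RPKM + 1) scale with 95% confidence intervals for the 5 genes in the 3 comparisons, with filled points at an adjusted p under 0.05. Glis3 is filled at -0.94 and -0.90, Gas1 at -0.75 in the Glis3 knockdown, and the 5 points of the CD133 knockdown are all open. The intervals are not adjusted for the number of genes, so some exclude 0 at an open point.

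The rest of the Hedgehog pathway was read from lists of its ligands, receptors, transducers, modifiers and targets, and of the factors related to Glis3. Much of the signalling end of the pathway has no row: this holds for Shh and Dhh among the ligands, for Boc and Hhip among the receptors, for Gli1, Gli2 and Gli3 among the transcription factors, and for Glis1. Those genes were not analysed here. Ihh (Indian hedgehog), the ligand with a row, lay at 3.92 and 3.73 RPKM in control libraries 1 and 3, 2.77 and 3.00 in the Glis3 knockdown and 4.53 and 3.36 in the CD133 knockdown. The Glis3 shRNA libraries were below all others, yet the log2 fold change of -0.31 did not pass (SE 0.116, adjusted p = 0.124). Disp1, which releases the ligand from cells, stood at -0.04 (adjusted p = 0.739).

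Of the 7 receptors and surface regulators tested, 2 fell in the Glis3 knockdown, Gas1 and Gpc3, 0 rose and 5 did not pass, beside 4.53% of all genes called lower. The median of the list was -0.20, against 0.04 over all genes tested. Gpc3, a glypican that competes with Ptch1 for Hedgehog ligand, was at 10.71 and 7.95 RPKM in control libraries 1 and 3, 2.74 and 2.01 in the Glis3 knockdown and 1.53 and 5.01 in the CD133 knockdown. All knockdown libraries lay below the controls, and those of the CD133 knockdown differed widely from each other. In the Glis3 knockdown Gpc3 fell by 1.61 with an SE of 0.372 (adjusted p = 0.0388). That call was lost without any 1 of the control or Glis3 shRNA libraries (adjusted p between 0.0521 and 0.181). Its value in the CD133 knockdown was -1.39 (adjusted p = 0.0566), which passed with a pseudocount of 5 (0.0421) and without CD133 shRNA library 3 (0.0161). The transducer Smo lay between 22.11 and 25.02 RPKM over the 6 libraries and the coreceptor Cdon between 6.72 and 8.04 RPKM, and for both each knockdown overlapped control. In the CD133 knockdown none of the 7 passed (median -0.13), where 11.8% of all genes were called.

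Among 15 tested genes of Hedgehog transduction at the cilium, 2 rose in the Glis3 knockdown and 0 fell, where 8.39% of all genes were called higher. The CD133 knockdown had 3 that rose and 0 that fell, where 8.16% of all genes were called higher. The medians were -0.01 and 0.02, against 0.04 over all genes tested in each comparison. Ift27, a subunit of intraflagellar transport needed for pathway components to leave the cilium, lay at 10.30 and 10.43 RPKM in control libraries 1 and 3. It was at 14.44 and 13.85 in the Glis3 knockdown and 13.58 and 14.36 in the CD133 knockdown, above control in 4 of 4 libraries (log2 fold change 0.41, adjusted p = 0.00951, and 0.40, adjusted p = 0.0151). Tulp3, an adaptor that carries receptors into the cilium, was at 4.25 and 3.93 RPKM in control, 5.93 and 6.03 in the Glis3 knockdown (0.46, adjusted p = 0.0121) and 5.11 and 5.54 in the CD133 knockdown (0.31, adjusted p = 0.0339). Ulk3, a kinase that binds Sufu and acts on Gli proteins, rose in the CD133 knockdown by 0.31 (adjusted p = 0.0499) and stood at 0.28 in the Glis3 knockdown (adjusted p = 0.0606). The calls of Tulp3 and Ulk3 in the CD133 knockdown were lost with median centring (adjusted p = 0.0515 and 0.0787) and quantile normalization (0.0599 and 0.0985). Stk36, a kinase relative of the fly gene fused, stood at -0.37 in the Glis3 knockdown (adjusted p = 0.0642, or 0.0438 with median centring).

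None of the 23 kinases, ubiquitin ligases and their partners listed as acting on Hedgehog signalling or Gli proteins passed in either knockdown. Their medians were 0.04 and 0.07, close to the 0.04 of all genes tested in each comparison, of which 12.9% and 11.8% were called. Spop, an adaptor that sends Gli proteins for degradation, showed how close some came: it lay at 61.52 and 62.52 RPKM in control libraries 1 and 3, 55.67 and 52.29 in the Glis3 knockdown and 52.55 and 54.99 in the CD133 knockdown. Its log2 fold change of -0.20 in the Glis3 knockdown had an adjusted p of 0.0648, which was 0.0366 with median centring and 0.0337 with quantile normalization.

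Of 9 tested genes often used as Hedgehog targets, 1 rose and 0 fell in the Glis3 knockdown, beside 8.39% of all genes called higher and 4.53% lower. Values of 7 of the 9 were above 0, with a median of 0.20 against 0.04 over all genes. With CD133 knocked down 1 rose and 1 fell, beside 8.16% called higher and 3.64% lower, with 5 of the 9 values above 0 and a median of 0.16. Ccnd2 (cyclin D2, a G1 cyclin) lay at 37.64 and 31.21 RPKM in control libraries 1 and 3, 46.39 and 52.65 in the Glis3 knockdown (log2 fold change 0.52, adjusted p = 0.0261) and 56.31 and 52.12 in the CD133 knockdown (0.65, adjusted p = 0.0193). Spp1 (osteopontin, which is also a marker of pancreatic ducts) had 6490 and 6733 RPKM in control, 5212 and 4168 in the Glis3 knockdown and 3127 and 4202 in the CD133 knockdown. It fell in the latter by 0.87 (adjusted p = 0.0290) and stood at -0.50 in the former (adjusted p = 0.108). Quantile normalization sets values by rank and put Spp1 at -0.37 in both knockdowns. Its adjusted p in the former (0.00449) therefore does not reflect the spread of Spp1. Both Ccnd2 and Spp1 have many other regulators.

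**Figure D3:**
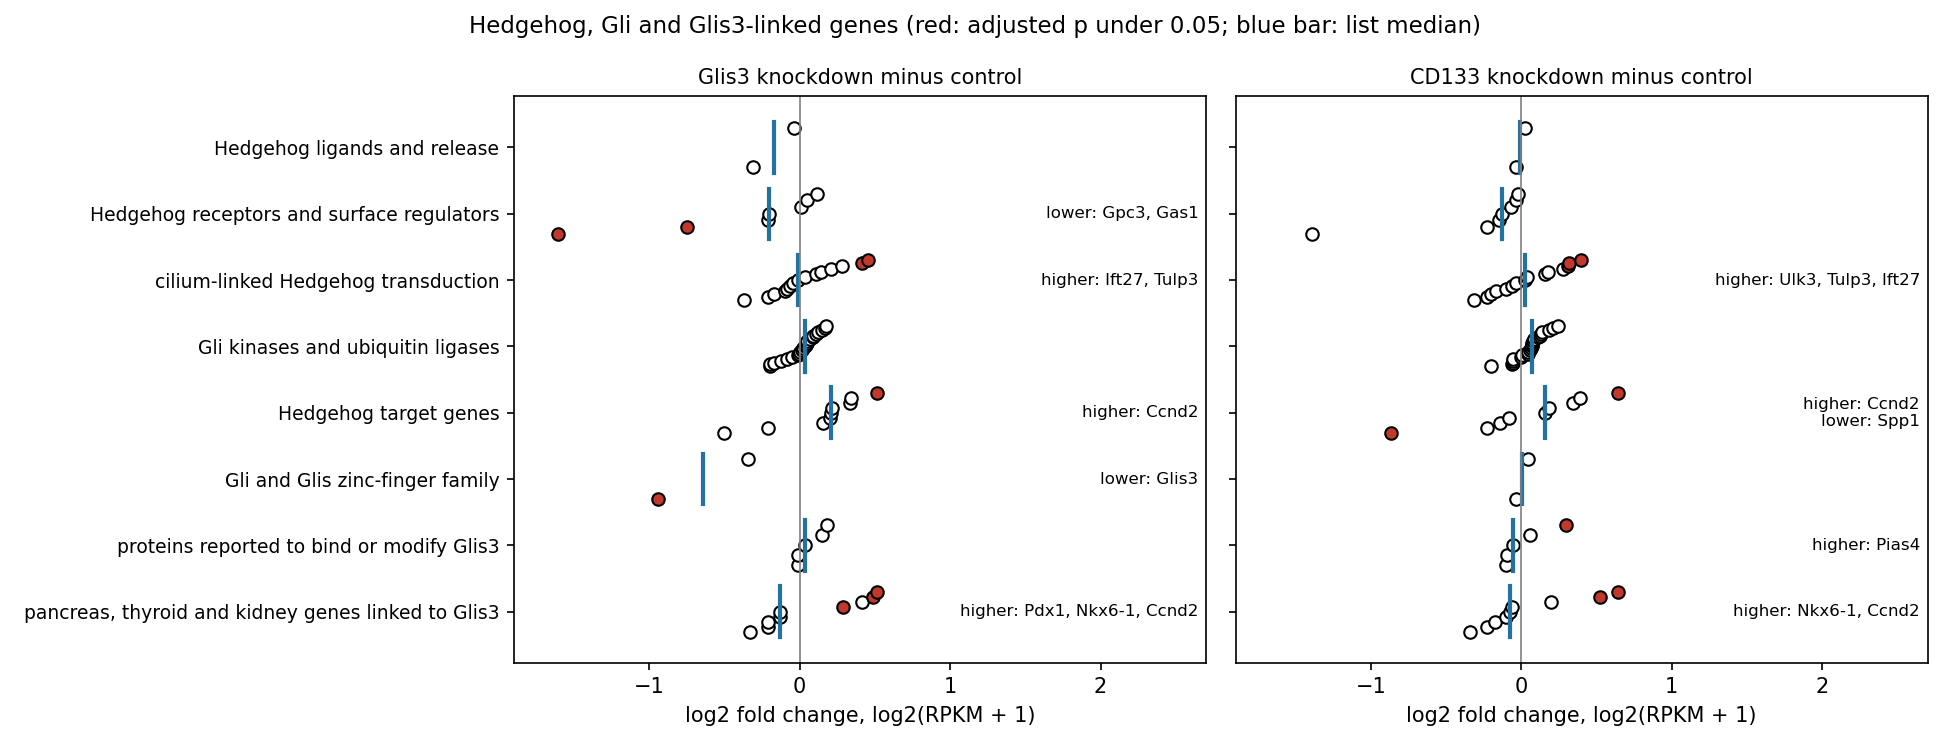
Log2 fold changes on the log2(RPKM + 1) scale of every tested gene in the 8 lists, against control, with red points at an adjusted p under 0.05, a blue bar at each list's median and the called genes named at the right. The called genes are few in each list, and the 23 kinases and ubiquitin ligases lie close to 0 with none called.

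Of the Gli and Glis factors listed, 2 had rows, Glis3 and Glis2. Glis2, close in level to Glis3, lay at 25.49 and 22.09 RPKM in control libraries 1 and 3, 20.25 and 16.93 in the Glis3 knockdown and 24.16 and 24.90 in the CD133 knockdown. The Glis3 shRNA libraries were the lowest, with a log2 fold change of -0.34 that did not pass (SE 0.099, adjusted p = 0.0686, or 0.0442 with median centring and 0.0247 without Glis3 shRNA library 1). In the CD133 knockdown Glis2 overlapped control (0.05, adjusted p = 0.795).

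Of 5 proteins reported to bind or modify Glis3, 0 passed in the Glis3 knockdown (median 0.04). In the CD133 knockdown 1 rose, Pias4, a SUMO ligase, by 0.30 (adjusted p = 0.0222), and the median was -0.06. Among all genes tested, 12.9% were called in the Glis3 knockdown and 11.8% in the CD133 knockdown. Of 9 tested genes linked to Glis3 in pancreas, thyroid or kidney, 3 rose in the Glis3 knockdown and 0 fell, beside 8.39% of all genes called higher and 4.53% lower. The median of the list was -0.13, against 0.04 over all genes. Those that rose were Ccnd2, and the pancreatic transcription factors Nkx6-1 by 0.49 (adjusted p = 0.0272) and Pdx1 by 0.28 (adjusted p = 0.0261, or 0.056 with median centring). The call of Pdx1 was also lost with only the groups compared (adjusted p = 0.053). In the CD133 knockdown Ccnd2 and Nkx6-1 rose, the latter by 0.52 (adjusted p = 0.0256), and Pdx1 stood at 0.20 (adjusted p = 0.0685). There 8.16% of all genes were called higher. Onecut1, a duct and endocrine progenitor factor, was above both controls in both Glis3 shRNA libraries (34.81 and 29.93 against 27.62 and 20.81 RPKM) but did not pass (0.41, adjusted p = 0.10), and Pkhd1, a cilium gene of polycystic disease, stood at -0.33 (adjusted p = 0.251).

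Beside Glis3, 7 genes of the 8 pathway lists were called in the Glis3 knockdown, where 12.9% of all genes tested were called. In the CD133 knockdown 7 pathway list genes were called, where 11.8% of all genes tested were. Some genes stand in more than 1 list, and the distinct list genes tested were not counted. These counts of 7 therefore have no share to set beside those of all genes, and no excess is read from them. Leaving out a control library leaves 1 library in that group, and most or all calls among all genes were then lost. The list calls, other than that of Glis3, were lost with them. Such fits cannot tell which of these calls depend on a control library. Cell type markers, Prom1 and the genes of like profile are not in these counts. Leaving out a knockdown library likewise leaves 1 library in its group. Of the 7 in the Glis3 knockdown, 5 passed without Glis3 shRNA library 1 (all but Gpc3 and Pdx1) and 4 without library 3 (all but Gpc3, Pdx1 and Ccnd2), and of the 7 in the CD133 knockdown, 0 passed without CD133 shRNA library 1 and 2 without library 3 (Ccnd2 and Spp1).

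Genes with profiles most like those of Glis3 and Gas1 were found by the distance between log2(RPKM + 1) values over the 6 libraries, each centred on its mean. For Glis3 they were Marcks (a membrane-bound substrate of protein kinase C, distance 0.154), Shank2 (a scaffold protein, 0.171), Ncam1 (a cell adhesion molecule, 0.195), Atp2b4 (a calcium pump of the plasma membrane, 0.238) and Trpm6 (a magnesium channel, 0.239). Marcks, as the nearest, lay at 66.64 and 65.07 RPKM in control libraries 1 and 3, 38.11 and 30.10 in the Glis3 knockdown and 63.12 and 60.71 in the CD133 knockdown. For Gas1 they were Wnt7a (a Wnt ligand, 0.114), Adgrg1 (an adhesion receptor, 0.117), Anxa6 (an annexin, 0.169), Ripk3 (a kinase of necroptosis, 0.180) and Myo7a (an unconventional myosin, 0.196). Wnt7a lay at 24.70 and 26.86 RPKM in control, 17.97 and 13.01 in the Glis3 knockdown and 23.38 and 25.01 in the CD133 knockdown. Like Gas1, it was lower in Glis3 shRNA library 3 than in library 1. Pearson's r with the member ran from 0.97 to 0.99 over these 10 genes, as a description of the same 6 libraries in 3 groups, from which the genes were also picked.

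**Figure D4:**
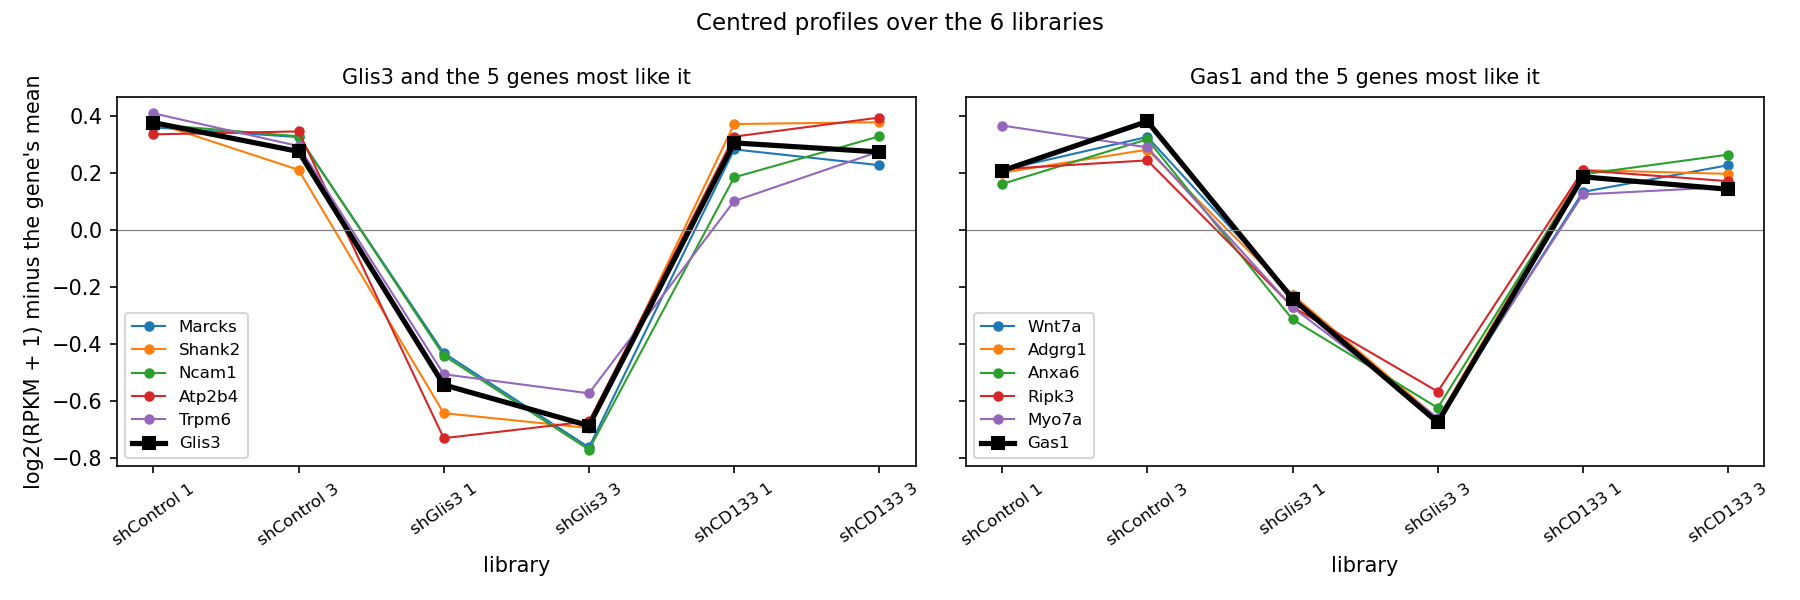
Values of log2(RPKM + 1) minus each gene's mean in the 6 libraries, for Glis3 (left, black) and Gas1 (right, black) with the 5 genes most like each. All 12 lines dip in the 2 Glis3 shRNA libraries, and on the right every line is lower in Glis3 shRNA library 3 than in library 1.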

How the data were processed

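Poly(A)-selected, stranded RNA libraries were sequenced from 6 colony samples in 3 groups of 2. The authors deposited 1 table of RPKM values with 2 decimals for 11164 genes. Per the submitters' processing notes, bcl2fastq 2.18.0.12, TopHat2, HTSeq and mm10 were used. For the annotation, the library totals and the use of strand, the answer is not given in the sources used here. Columns were matched to samples by the names in the descriptions. Depth was estimated by finding, between 3 and 80 megareads, the depth at which RPKM values under 3 of genes with transcripts under 1200 bases were most often whole reads within 0.15. That held for 56.8% to 62.6% of values, so whole counts were not recovered. By chance it would hold for 30% at a single fixed depth. For the best depth of a scan the share by chance is higher, and it was not computed. The depths and the read numbers taken from them are therefore rough.

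Values were log2(RPKM + 1), for 10829 genes whose mean reached 1 RPKM. With limma 3.58.1 in R 4.3.3, 3 group means were estimated per gene (empirical Bayes with a variance trend, 3 residual and 3.69 prior degrees of freedom). P-values are two-sided, adjusted by Benjamini-Hochberg over all genes tested, with a threshold of 0.05, and every adjusted p comes from this model or a stated alternative to it. Confidence intervals are those of each gene alone, without adjustment for the number of genes. Some therefore exclude 0 where the adjusted p did not pass. The fit was tested on simulated data. The members and the lists were chosen with earlier results of these data known. Named were the 5 members, list genes past the threshold with the 2 largest others of each list, Prom1, and the 5 genes nearest to each called member. Some genes of the lists are not reported here. Smo, Cdon, Fn1 and Ncam1 were singled out after their values were seen. Gene loci come from GENCODE M21 and upstream sequences from RefSeq, where all 5 members were matched by symbol. Alternatives changed the pseudocount, filter, scaling, trend, libraries in the fit and replicate block, and left out each library in turn.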

Additional observations from a re-analysis of the deposited data

How the results depend on the processing

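The fall of Glis3 kept its call, against control and against the CD133 knockdown, under every alternative run. The number of genes called in the Glis3 knockdown was 1400, against 913 with a mean of at least 5 RPKM. It was 1278 in the CD133 knockdown. Between the knockdowns it was 440, against 58 with only the groups compared. Leaving out 1 library gave 21 to 1334, 0 to 1657 and 25 to 743 genes in the 3 comparisons. The 0 came by limma without control library 1 or 3, where 2444 and 2672 genes had an unadjusted p under 0.05. In the Glis3 knockdown 21 and 88 genes were called without control library 1 and 3, and 508 without Glis3 shRNA library 3. These fits have fewer samples, and a lone library is assumed to vary like the other groups.

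Differences between libraries 1 and 3 correlated at -0.37 between control and Glis3 knockdown, -0.43 between control and CD133 knockdown and 0.03 between the knockdowns, so the numbers were not shown to pair samples. With the replicate block 608, 335 and 79 genes were called. The block ended the calls of Gpc3, Ccnd2 and Pdx1 in the Glis3 knockdown and of Tulp3, Ulk3, Spp1, Pias4 and Nkx6-1 in the CD133 knockdown, and kept those of Glis3 and Gas1. A crossed pairing, chosen after seeing the data, gave 1497 and 1456 genes against control.

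Kif7 passed with quantile normalization in the CD133 knockdown (-0.41), and between the knockdowns with quantile normalization (0.48) and without a variance trend (0.42). In the CD133 knockdown, Ihh turned to -0.027 with median centring and -0.062 with quantile normalization, and Glis2 to -0.0072 with median centring. With 1 library left out, Gas1 ran from -0.97 to -0.54 in the Glis3 knockdown and -0.84 to -0.41 between the knockdowns. Values near 0 changed sign: Sufu (-0.036 to 0.017) and Disp1 (-0.075 to 0.0051) in the Glis3 knockdown, Glis3 (-0.087 to 0.014), Ihh (-0.15 to 0.20) and Glis2 (-0.053 to 0.14) in the CD133 knockdown, and Ptch1 (-0.068 to 0.11) between the knockdowns. The cause was not tested. Values and counts recomputed without leaving out a library stayed the same in 851 cases. In 22 they were stronger, in 28 weaker, in 21 moved and in 3 reversed in sign. The same meant a kept call for a gene, a list median within the replicate spread, or a count within a factor of 1.5. Gas1 and Kif7 rest on the fewest reads of the members at the estimated depth, and each group has only 2 libraries. Small differences in them may therefore be missed, and the smallest detectable difference was not computed.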
